A study of Mus musculus with 16 samples.

Results

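The response of 3B3l mouse embryonic stem cells (mESCs) to 2i medium was measured on 4 expression arrays of 16 in the series: 2 arrays of cells in 2i (3B3l-2i) and 2 of cells in serum (3B3l-serum), chosen by their sample titles. J1 is a wild-type male mESC line. The 3B3l cells descend from J1, lack their own functional Dnmt3a and Dnmt3b, and express exogenous Dnmt3b and its cofactor Dnmt3l constitutively from added constructs. Both 3B3l groups carry the same alleles and constructs. TKO cells lack Dnmt1, Dnmt3a and Dnmt3b. Serum medium held 15% fetal calf serum and LIF at 500 U/ml, and 2i was a serum-free N2B27 medium with 1 uM PD0325901, an inhibitor of MEK, 3 uM CHIR99021, an inhibitor of GSK3, and LIF at 1000 U/ml, in which cells were kept for 2 weeks. The inhibitors, the loss of serum and the higher LIF cannot be told apart. 3B3l cells were grown without feeder cells, while J1 cells in serum were grown on them. The comparison asks how the transcriptome moves in 2i when de novo methylation activity is held up by transgenes. The other lines served only to test where the 3B3l response differed: 4 arrays of J1-serum, 3 of J1-2i, 2 of TKO-serum and 3 of TKO-2i.

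Serum with LIF keeps mESCs in a mixed state in which FGF and ERK signalling pushes part of the population towards differentiation. In 2i the MEK inhibitor blocks that branch and the GSK3 inhibitor raises beta-catenin and Wnt target activity, and the cells take on a more uniform naive state. DNA methylation is laid down by Dnmt3a and Dnmt3b with the help of Dnmt3l and copied by Dnmt1, and in wild-type cells 2i lowers Dnmt3b, Dnmt3l and global methylation.

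Each array was hybridised with Cy3-labelled RNA in 1 colour. Levels below are log2 signals scaled to the 75th percentile of their own array, and a log2 change is the 3B3l-2i mean minus the 3B3l-serum mean. The 75th percentile lay between 1019 and 1194 intensity units on the 4 arrays, and 39.7% to 42.4% of the spots were well above background. Over all tested genes the Pearson correlation was 0.986 between the serum arrays, 0.984 between the 2i arrays and 0.941 to 0.949 across media, given as a description of the arrays. All 4 arrays lay on 1 slide read on 1 scan day, which they shared with J1-serum replicate 1 alone, so the media were compared within a slide and the lines mostly across slides. The labels do not say that replicates were separate cultures, so p-values measure the spread between these arrays, which may be technical, and the number of arrays limits the precision. The cells carried the defining stem cell markers in both media: Pou5f1 and Zfp42 lay at the saturated end of the scanner, and Sox2 changed by 0.09.

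Probes entered the test if all arrays of any of the 6 groups held them well above background, which kept 13919 named genes, each read by its brightest probe. The response of 3B3l could be fitted for 13886 of them, since outlier spots left out on both arrays of a group removed 33. A gene was called at a limma adjusted p of at most 0.05 with a change of at least 2-fold. In 3B3l-2i 780 genes were called higher (5.62% of those tested) and 1105 were called lower (7.96%), together 1885 (13.6%). The counts of the gene lists below are to be read beside these shares. The median log2 change of all tested genes was 0.0028. Of the called genes, 946 were measured on all 4 arrays, 173 were not well above background on either serum array and 408 not on either 2i array. The other 358 were above background on only some arrays or none, saturated, or lacked a value, and for 250 called genes neither medium was well above background on both of its arrays. A gene below background in 1 medium gets a lower limit for its fold change, taken at the dimmest signal still counted as above background.

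**Figure D1:**
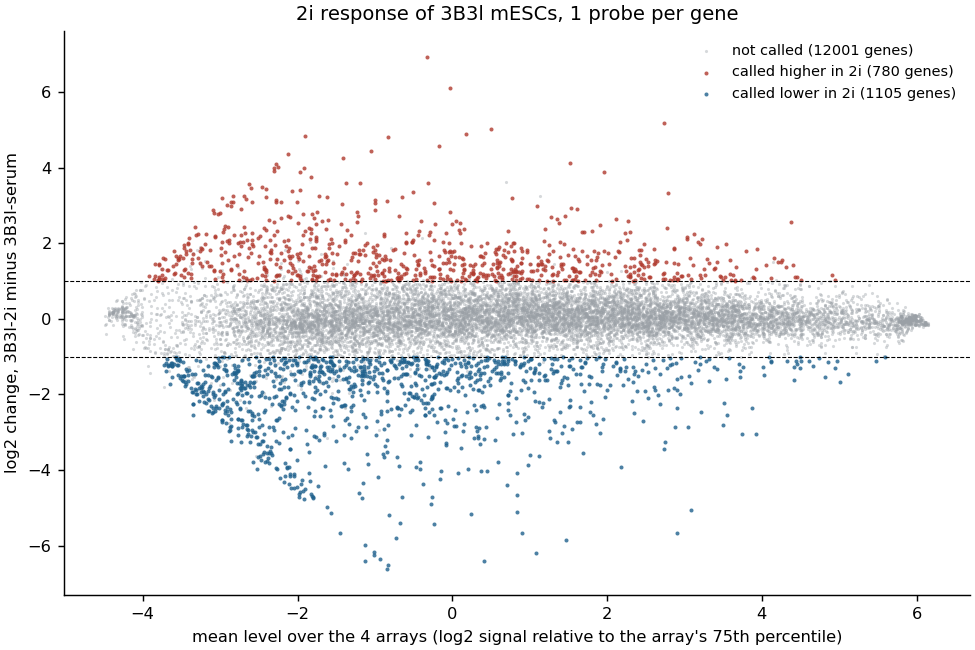
Log2 change of each tested gene (3B3l-2i minus 3B3l-serum) against its mean level over the 4 arrays, 1 probe per gene. The dashed lines mark a 2-fold change; 780 genes called higher are red, 1105 called lower are blue, and the largest changes at low mean levels belong to genes near background in one medium.

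Cdx1, a caudal-type homeobox factor and Wnt target, rose more than any other gene measured on all 4 arrays. Its level was 0.05 and 0.26 in 3B3l-serum and 4.83 and 5.82 in 3B3l-2i. Both 2i arrays lay far above both serum arrays, and the log2 change was 5.17 ± 0.26 (SE) (adjusted p = 1.97e-08). Stra8, the retinoic acid-induced gate to meiosis, read -0.45 and -0.61 in 3B3l-serum and 3.35 and 3.82 in 3B3l-2i, without overlap, and rose by 4.11 ± 0.21 (SE) (adjusted p = 2.97e-08). Crxos, a homeobox gene, rose by 3.88. Aqp3, a water and glycerol channel, rose by 3.32, and Rab38, a small GTPase of lysosome-related organelles, by 3.19. Cpt1a, which admits long-chain fatty acids to mitochondria, rose by 2.94. Aurkc, the aurora kinase of germ cells and early embryos, rose by 2.92, and its second probe was also called higher. The other 5 of the 12 largest rises were those of the XIAP-associated factor Xaf1 (2.99), Myorg (2.82), the inositol trisphosphate kinase gene Itpka (2.73), the epithelial ETS factor Elf3 (2.70) and Tmem181a (2.63). Some genes came up from background. Tlx2, a homeobox gene of neural crest derivatives, was at least 42-fold higher (adjusted p = 4.49e-08), Ppp1r14d at least 19.8-fold higher and Hal, which breaks down histidine, at least 14.2-fold higher. Tlx2 and Hal entered the test through 2i groups alone, which favours a rise.

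Tagln, the smooth-muscle actin-binding protein transgelin, fell furthest among genes measured on every array. Its level was 4.40 and 4.38 in 3B3l-serum and -1.47 and -1.44 in 3B3l-2i. The replicates nearly coincided in both media, and the log2 change was -5.84 ± 0.27 (SE) (adjusted p = 1.29e-08). S100a6, a calcium-binding protein, stood at 5.72 and 5.74 in 3B3l-serum and 0.25 and -0.11 in 3B3l-2i, a change of -5.66 ± 0.16 (SE) (adjusted p = 6.66e-10). Krt18, a keratin of simple epithelia, read 5.51 and 5.72 in 3B3l-serum and 0.66 and 0.43 in 3B3l-2i and fell by 5.07 ± 0.21 (SE). In none of these did the groups overlap. The tight-junction claudin Cldn6 changed by -4.67, smooth-muscle actin Acta2 by -4.41, tissue factor F3 by -4.08 and the endocytic receptor Lrp2 by -4.07. Krt42 (-4.02), the growth cone protein Gap43 (-4.02), Aass of lysine breakdown (-3.98), the desmosomal p53 target Perp (-3.91) and the cytokine gene Ltb (-3.87) completed the 12 largest falls. Among genes that went down to background, Krt19 was at least 60.8-fold lower, Igfbp3 at least 35.3-fold and the protease inhibitor Spink1 at least 26.9-fold. Igfbp3 and Spink1 entered the test through serum groups alone, which favours a fall.

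**Figure D2:**
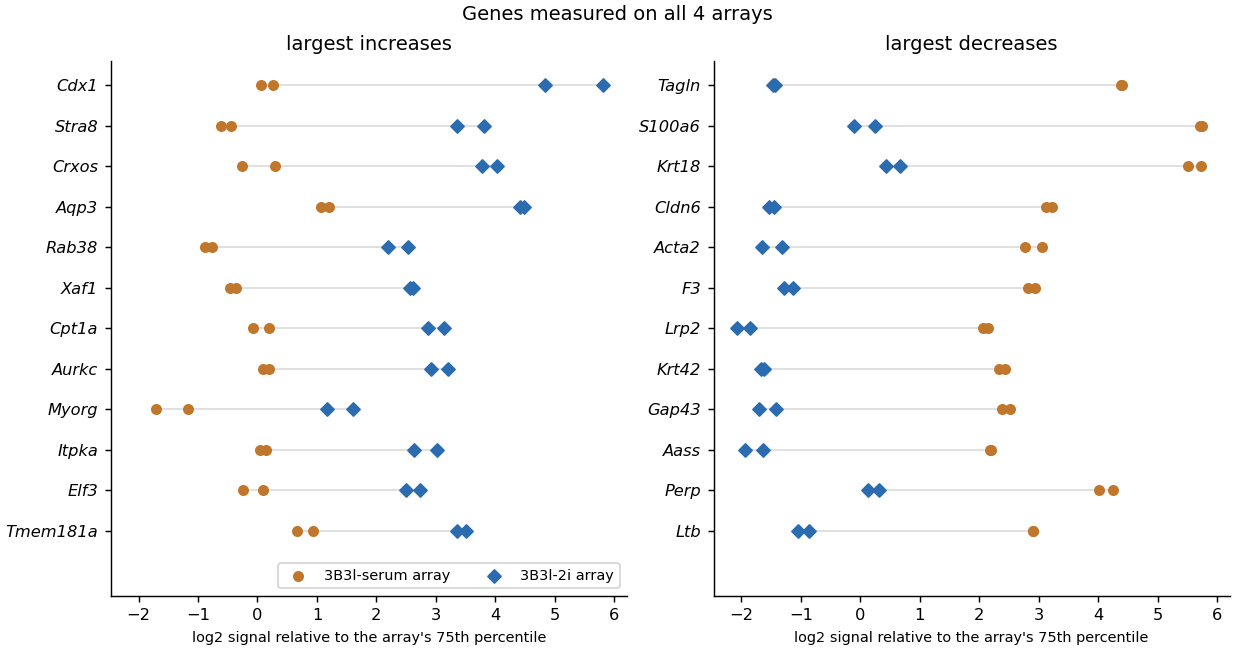
Level of the 12 genes with the largest increase and the 12 with the largest decrease among called genes measured on all 4 arrays (x axis, log2 signal scaled to each array's 75th percentile). Circles are the 2 serum arrays and diamonds the 2 arrays in 2i; in all 24 genes the 2 media do not overlap, and genes were chosen by the size of this change.

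ERK pathway targets were called lower in 13 of 24 tested and higher in 0, with a median log2 change of -1.15; of the 17 well above background on all 4 arrays 8 were lower (median -0.74). Egr1, the immediate-early zinc finger factor, read 1.92 and 2.41 in 3B3l-serum and -3.63 and -3.63 in 3B3l-2i and was at least 22.4-fold lower. The ERK phosphatases Dusp4 and Dusp5, feedback brakes of the pathway, were at least 25.5-fold and 10.8-fold lower, and Dusp6 changed by -1.74. The FGF-induced Phlda1 fell by 2.73, and Myc by 1.76. Members not called included the ETS factors Etv4 (0.53) and Etv5 (0.19), Spry2 (0.12) and the cyclin gene Ccnd1 (0.34).

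Wnt targets went both ways. Of 16 tested, 6 rose and 3 fell (median 0.36). Some of them, Axin2 and T included, entered the test through a 2i group alone, which favours a rise, and of the 9 well above background on all 4 arrays 2 rose and 1 fell. Axin2, the negative-feedback scaffold of the destruction complex, read -4.31 and -2.88 in 3B3l-serum and -1.46 and -0.58 in 3B3l-2i and was at least 2.35-fold higher (adjusted p = 8.14e-04); neither serum array was well above background, and the log2 change ranged from 1.86 without serum replicate 1 to 3.28 without serum replicate 2. The mesodermal T-box factor T was at least 3.52-fold higher, and Sp5, a zinc finger repressor of Wnt target genes, rose by 1.41 ± 0.20 (SE) (adjusted p = 1.87e-04). The ligand gene Wnt3 was at least 1.32-fold lower, but it entered the test through 3B3l-serum alone, which favours a fall. Ccnd2 and Ascl2 changed by -3.33 and -2.42, and 1 of the 2 Ccnd2 arrays in 2i was not well above background. Of the 12 members with a promoter window (17 windows in all), Sp5 and Tnfrsf19, which was not called (-0.36), held the TCF motif CTTTGAT on either strand, in 2 windows (11.8%). That motif stood in 3.21% of all windows, 2.42% of those of tested genes and 3.55% of those of genes called higher. A list chosen to hold Wnt targets favours such a motif. The 250 bases before the Sp5 start site (RefSeq, GRCm38.p6, chr2:70474673-70474922, plus strand) follow with the motif, 97 bases from the start, in capitals.

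Sp5: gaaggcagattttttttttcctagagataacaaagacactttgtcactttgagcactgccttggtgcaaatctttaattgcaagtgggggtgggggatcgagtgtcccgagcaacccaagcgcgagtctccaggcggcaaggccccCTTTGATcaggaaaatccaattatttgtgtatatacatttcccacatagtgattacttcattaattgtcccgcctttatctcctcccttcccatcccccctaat

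LIF and STAT3 genes gave 2 higher and 2 lower of 15 (median 0.021), and Socs3, the STAT3 feedback inhibitor, was not called (-0.19); without 3B3l-2i replicate 2 only 1 member was higher. In the BMP group 2 of 16 rose and 3 fell (median -0.20); the counts were 0 higher without 3B3l-serum replicate 1 and 5 lower without 3B3l-2i replicate 1, and the median was 2.02e-04 without 3B3l-serum replicate 1 and -0.34 without 3B3l-serum replicate 2. Of the BMP-induced Id genes, inhibitors of basic helix-loop-helix factors, Id1 fell by 2.26 and Id2 by 5.65, while Id3 (-0.94) and Id4 (0.036) were not called, though without 3B3l-2i replicate 1 Id3 was called lower (-1.34). Id2 was at 3.79 and 3.66 in 3B3l-serum and -1.61 and -2.24 in 3B3l-2i, and 1 of its 2i arrays was not well above background. The Nodal group had 1 higher and 4 lower of 14 (median -0.33), with the inhibitor Lefty1 at -3.01 and the ligand Nodal itself at 0.74, not called. Without 3B3l-serum replicate 1 or 3B3l-2i replicate 2 it had 0 higher, and its median was -0.096 without 3B3l-2i replicate 1 and -0.50 without 3B3l-2i replicate 2.

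Of 14 core stem cell markers tested 1 rose and 2 fell (median -0.031), but 4 of them were saturated on both arrays of a group, where a change cannot be read in full. Utf1, a chromatin factor of undifferentiated cells, fell by at least 1.66 on the log2 scale, since both serum arrays were saturated. Alkaline phosphatase Alpl rose by 1.83 ± 0.22 (SE). Among naive pluripotency factors 4 of 18 rose and 1 fell (median 0.29). Tfcp2l1, a LIF and Wnt target that holds the naive network, read 1.91 and 2.10 in 3B3l-serum and 4.04 and 4.44 in 3B3l-2i and rose by 2.24 ± 0.18 (SE). Tbx3 rose by 1.44, Prdm14 by 1.25 and Klf4 by 1.11, the last with 0.88 and no call when 3B3l-2i replicate 2 was left out. Esrrb missed the 2-fold limit (0.65 ± 0.11 (SE), adjusted p = 8.24e-04), and Nanog read -0.0054 by a main probe with 1 saturated serum array and 0.76 by a second probe that was not called. Formative and primed genes, which mark the exit from the naive state, were called lower in 12 of 21 and higher in 1 (median -1.29), and higher in 0 without 3B3l-serum replicate 1. Otx2, a head-forming homeobox factor of the early post-implantation epiblast, read 3.44 and 3.47 in 3B3l-serum and -0.01 and -0.16 in 3B3l-2i and fell by 3.54 ± 0.14 (SE), while the growth factor gene Fgf5 and the epithelial factor Grhl2 were at least 6.92-fold and 7.02-fold lower.

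The one naive factor that fell was Dppa3, also called Stella, a maternal factor that guards methylation in the early embryo. Its level was 1.72 and 2.43 in 3B3l-serum and -4.13 and -4.05 in 3B3l-2i. Both serum arrays were well above background and neither 2i array was, a fall of at least 21.1-fold (adjusted p = 1.46e-09). Among enzymes and readers of DNA methylation 4 of 23 rose and 4 fell (median -0.17). Dnmt3b, which the cells express from a construct, read 5.62 and 5.44 in 3B3l-serum and 5.64 and 6.01 in 3B3l-2i by its brightest probe, the nearest arrays of the 2 media almost equal, and was not called (0.29 ± 0.14 (SE), adjusted p = 0.155). Its 2 dimmer probes did not give the same result: 1 fell by 1.50, from 0.71 and 0.86 to -0.89 and -0.55, and the other was at least 2.5-fold lower. The transcript region each probe reads was not analysed here. Dnmt3l was at 5.89 and 5.80 in 3B3l-serum and 4.29 and 4.48 in 3B3l-2i, both serum arrays saturated, and fell by at least 1.46 on the log2 scale (adjusted p = 2.74e-05). Its mean in 3B3l-2i was 4.38, beside means of 4.64 in J1-serum and 0.74 in J1-2i, and levels between lines were not tested. Dnmt1 was not called (-0.29), and no 3B3l array showed Dnmt3a well above background.

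The other called members of that group had several roles. Mbd1, a methyl-CpG binding repressor, read 0.18 and -0.07 in 3B3l-serum and 1.93 and 1.84 in 3B3l-2i and rose by 1.83 ± 0.20 (SE), without overlap. Tet2, a 5-methylcytosine oxidase, rose by 1.03, just over the 2-fold limit, and was not called without 3B3l-serum replicate 2, when the group had 2 members higher, nor under quantile normalization (0.95) or in the deposited value table (0.95). The stress-induced genes Gadd45g and Gadd45a fell by 3.17 and 2.21. Tet1 (-0.51), Uhrf1, the Dnmt1 partner (0.63), and the glycosylase Tdg (0.093) were not called, though a second, dimmer probe of Uhrf1 was called higher (1.14).

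**Figure D3:**
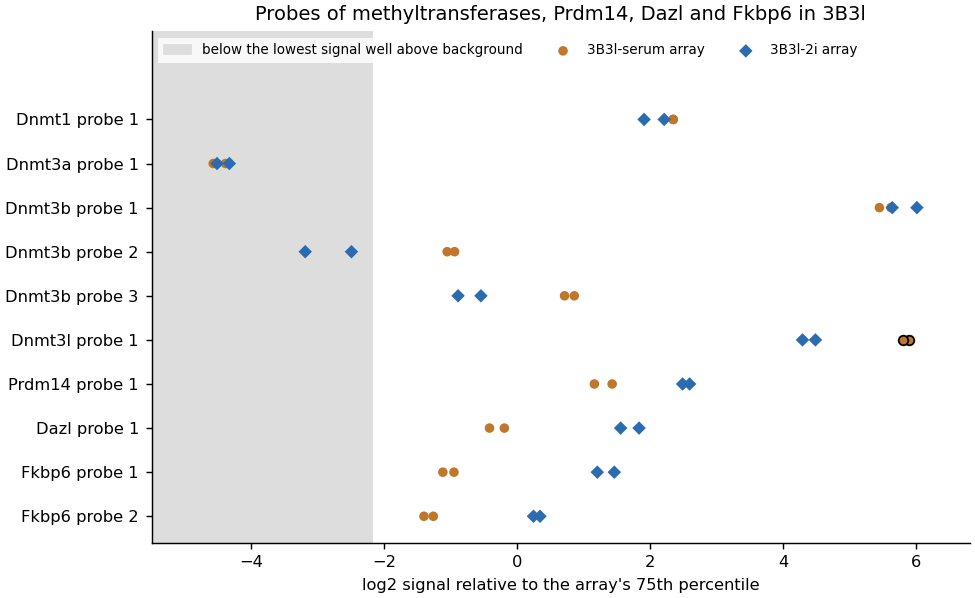
Level of each tested probe of Dnmt1, Dnmt3a, Dnmt3b, Dnmt3l, Prdm14, Dazl and Fkbp6 on the 4 arrays (log2 signal scaled to each array's 75th percentile). Circles are serum and diamonds 2i, black outlines mark a group saturated on both arrays and grey shades levels below the lowest signal well above background; the brightest Dnmt3b probe lies at 5.44 or above on every array while the other 2 are lower in 2i.

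Many germline genes have CpG-rich promoters that methylation keeps silent in somatic cells. Of 28 tested members 5 rose and 3 fell (median -0.065). Dazl, an RNA-binding protein of germ cells, read -0.42 and -0.20 in 3B3l-serum and 1.55 and 1.83 in 3B3l-2i and rose by 2.00 ± 0.24 (SE) (adjusted p = 4.73e-05). Fkbp6, a co-chaperone of the piRNA pathway, read -1.12 and -0.95 in 3B3l-serum and 1.46 and 1.20 in 3B3l-2i and rose by 2.37 ± 0.17 (SE) (adjusted p = 5.32e-07), with its second probe also higher. The 2 media did not overlap for either gene. Rpl10l and Tuba3a, testis forms of a ribosomal protein and of tubulin, rose by 1.80 and 1.58. The meiotic cohesin gene Smc1b, the recombinase gene Dmc1 and the piRNA factor Piwil2 were at least 5.44-fold, 2.34-fold and 1.87-fold lower; Dmc1 was not called under normexp background correction (-0.99). Ddx4 (-0.58), Mael (-0.43) and Sycp3 (0.42) were not called. The promoter windows of Dazl and Fkbp6, whose methylation the study examined, and of Stra8, the germline gene with the largest rise, differ in CpG content. In the 250 bases before the start Dazl has 20 CpGs, Fkbp6 29 in 1 of its 2 windows and Stra8 5, where the median window of tested genes has 14. They lie at chr17:50293621-50293870 (minus strand), chr5:135349914-135350163 (minus) and chr6:34920698-34920947 (plus) of GRCm38.p6, from RefSeq, with CpGs in capitals.

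Dazl: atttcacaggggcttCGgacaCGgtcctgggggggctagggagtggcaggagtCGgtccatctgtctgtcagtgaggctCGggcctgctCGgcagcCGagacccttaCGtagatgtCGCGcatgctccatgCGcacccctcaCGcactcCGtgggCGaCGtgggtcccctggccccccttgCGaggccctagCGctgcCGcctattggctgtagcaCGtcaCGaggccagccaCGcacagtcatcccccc

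Fkbp6: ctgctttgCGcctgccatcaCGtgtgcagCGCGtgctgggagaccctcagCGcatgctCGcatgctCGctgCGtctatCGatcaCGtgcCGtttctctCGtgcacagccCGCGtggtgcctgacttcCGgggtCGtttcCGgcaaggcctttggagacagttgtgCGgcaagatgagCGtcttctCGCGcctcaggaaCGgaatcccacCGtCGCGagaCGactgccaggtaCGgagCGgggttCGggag

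Stra8: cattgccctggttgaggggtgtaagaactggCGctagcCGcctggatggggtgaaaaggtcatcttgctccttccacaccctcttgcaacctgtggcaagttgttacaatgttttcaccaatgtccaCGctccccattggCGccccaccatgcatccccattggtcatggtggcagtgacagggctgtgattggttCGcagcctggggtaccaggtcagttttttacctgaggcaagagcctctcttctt

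Stra8 was among a set of genes whose 2i response in 3B3l ran against both other lines. In this set of 36 genes (0.260% of those tested) the level was called higher in 3B3l-2i and lower in J1-2i and TKO-2i, and only 6 genes (0.0433%) showed the opposite. The set was chosen after its values were seen. For all 36 the difference from each line was itself called, which choosing them by opposite calls favours; over all tested genes the response differed from J1 in 17.2% and from TKO in 9.47%. It held 7 members of the list of genes of the two-cell stage, which mark a rare embryo-like state within mESC cultures. Zscan4f, a zinc finger gene of that state, read 1.45 and 1.71 in 3B3l-serum and 3.80 and 4.15 in 3B3l-2i and rose by 2.40 ± 0.17 (SE) in 3B3l. Its mean level went from 4.04 to 1.93 in J1 and from 3.46 to -4.14 in TKO, where no 2i array was well above background. The difference was 4.51 from J1 (adjusted p = 3.72e-08) and 9.99 from TKO (adjusted p = 5.58e-11), the latter with a fitted value for the undetected group. Among the serum cultures the 3B3l arrays read lowest, and 3B3l-2i lay in the range of J1-serum; levels between lines were not tested.

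Its neighbours in the family gave like values: Zscan4a rose by 2.26, Zscan4b by 2.58 and Zscan4c by 1.74. These paralogs are near-identical, so a probe may read several of them and the single genes are uncertain. Over the whole two-cell list 7 of 13 tested rose and 0 fell (median 1.28), where the medians of the same genes were -1.66 in J1 and -2.07 in TKO. Gm4340 and Tmem92 rose by 1.61 and 1.28, and Tcstv1 was called while not well above background on any 3B3l array. Dppa2 (0.31) and Dppa4 (-0.47), regulators of that state, were not called, and neither was Zfp352 (-0.91). Of the other genes in the set, the predicted gene Gm8300 read 0.04 and 0.03 in 3B3l-serum and 2.52 and 2.82 in 3B3l-2i and rose by 2.63, Gm11546 was at least 2.29-fold higher, and the set also held Mbd1, the interferon regulatory factor gene Irf5 and 4 genes of the Pramel family.

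Stra8 itself fell in J1 from 1.08 to -0.65 and in TKO from 1.54 to -0.16, so its rise in 3B3l differed by 5.85 from J1 (adjusted p = 2.95e-08) and by 5.82 from TKO (adjusted p = 4.43e-08). Fkbp6 rose more in 3B3l than in TKO by 1.54 (adjusted p = 7.23e-04), while its difference from J1 was -0.06 ± 0.22 (SE, adjusted p = 0.873). For Dazl neither difference was called. Aurkc stood at 1.90 and 1.86 in J1 and at 1.15 and 0.57 in TKO (means in serum and 2i), and its rise differed by 2.96 and 3.50. The rise of Mbd1 differed by 2.98 and 3.20. For Dnmt3l the fitted response differed from J1 by at most 2.43, since both 3B3l-serum arrays were saturated, and the difference from TKO, whose serum arrays were saturated too, cannot be read. The Dnmt3b probes did not give 1 result: the brightest differed from J1 by 2.63 (adjusted p = 3.83e-07) and its difference from TKO was not called, while the 2 dimmer ones had differences from J1 of 0.41 and 0.69 that were not called and differences from TKO of -1.53 (adjusted p = 0.00581) and -1.44 (adjusted p = 8.24e-04). Prdm14 rose less than in J1, by -1.54 (adjusted p = 1.72e-05).

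In all, 358 genes (2.58%) responded higher in 3B3l than in either line and 309 (2.23%) lower, by calls of both differences. Of these, 149 and 161 were measured on all 4 arrays of 3B3l. Among genes named for downward differences from both lines, Dppa3 differed by -5.33 from J1 (adjusted p = 3.24e-08) and -5.66 from TKO (adjusted p = 2.78e-08), with a fitted value for the undetected 3B3l-2i arrays, so the sizes are not measured. In J1 it stood at 2.27 in serum and 1.43 in 2i, and in TKO at 2.15 and 1.65. The others were Krtdap (-5.96 and -4.94), Phldb2, a cortical adaptor of microtubules (-3.54 and -4.52), the gene 3830417A13Rik (-3.48 and -3.88) and the desmosomal cadherin Dsc2 (-3.30 and -3.46), of which Phldb2 alone was well above background on both 2i arrays of 3B3l. Krtdap and Dsc2 were also not well above background in J1-serum, so their sizes include fitted values. Dsc2 was well above background on no TKO array either. It entered the test through 3B3l-serum alone, the group where it was high, which favours a downward difference. Keratins of simple epithelia also differed from both other lines. Krt18 differed by -2.29 and -3.54 and Krt8 by -2.35 and -4.07, both measured on every array. Krt19, not well above background on either 3B3l-2i array, gave -2.71 and -5.11, sizes that are fitted and not measured. Krt18 averaged 5.62 in 3B3l-serum, where J1-serum and TKO-serum averaged 3.72 and 2.49.

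Differentiation factors also separated the lines. Otx2 hardly moved in J1 (3.74 to 3.65) and the response in 3B3l differed from J1 by -3.45 and from TKO by -1.49. Mycn, the Myc paralog of early embryonic cells, read 5.10 and 5.01 in 3B3l-serum and 2.68 and 2.70 in 3B3l-2i and fell by 2.36 ± 0.13 (SE), a difference of -2.53 from J1 and -1.26 from TKO. Fgf5 gave -4.63 and -1.89 and Grhl2 -4.33 and -2.68, fitted sizes that are not measured, since neither gene was well above background on a 3B3l-2i array, nor Fgf5 in J1 or in TKO-2i. Nes, the intermediate filament gene nestin, fell by 2.25 in 3B3l and differed by -2.85 and -2.30. In the other direction, Hoxa7 differed by 4.18 and 2.92, Hoxb13 by 3.30 and 1.83, and the interferon-induced Ifi27 by 4.26 and 2.41. In these 3 the 3B3l-serum arrays lay below background while J1 and TKO were partly or wholly above it, so the sizes include fitted values.

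**Figure D4:**
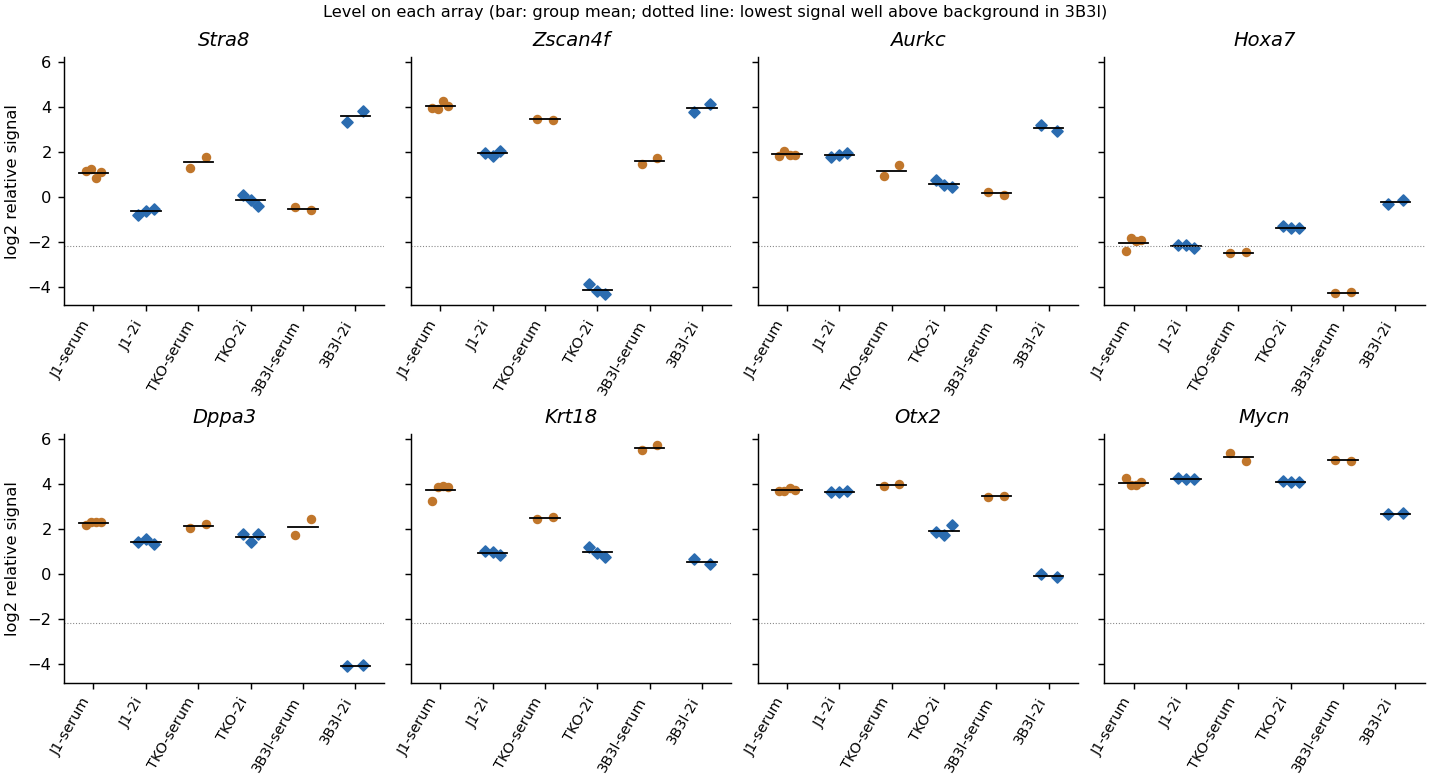
Level of 8 genes on each of the 16 arrays, by line and medium (log2 signal scaled to each array's 75th percentile); circles are serum, diamonds 2i, bars group means, and the dotted line the lowest signal well above background in 3B3l. Stra8 and Zscan4f rise in 3B3l and fall in J1 and TKO, and Dppa3 drops below the line in 3B3l-2i alone.

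Actin cytoskeleton genes and targets of the serum response factor SRF, which serum and actin dynamics control, were called lower in 15 of 26 and higher in 0 (median -1.58). Of the 21 members well above background on all 4 arrays 10 were lower (median -0.999). Skeletal actin Acta1 read 2.38 and 2.54 in 3B3l-serum and -4.16 and -4.16 in 3B3l-2i and was at least 27.5-fold lower. Thbs1, an extracellular matrix protein, was at least 18.1-fold lower, and the myosin light chain Myl9 at least 13-fold. Calponin Cnn2 fell by 3.43 ± 0.13 (SE), tropomyosin Tpm1 by 2.86 and the YAP and SRF target Ccn1 by 3.25. Cytoplasmic Actb and Actg1 were saturated in both media, and Vcl (-0.68) and Flna (-0.69) were not called. The CArG box, the sequence SRF binds, was found in 6 of the 22 promoter windows of the list (27.3%), against 1.25% of the windows of all tested genes and 2.23% of those of genes called lower. The list was chosen to hold SRF targets, which favours a high share, so the share is not a result about the falls. The 6 were Acta1, Actg1, Cnn2, Lima1, Myl9 and Vcl, of which 3 were called lower. These 3 windows are shown with the box in capitals, 63 bases from the start in Acta1 (chr8:123894776-123895025, minus), 151 in Myl9 (chr2:156775214-156775463, plus) and 46 in Cnn2 (chr10:79988350-79988599, plus).

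Acta1: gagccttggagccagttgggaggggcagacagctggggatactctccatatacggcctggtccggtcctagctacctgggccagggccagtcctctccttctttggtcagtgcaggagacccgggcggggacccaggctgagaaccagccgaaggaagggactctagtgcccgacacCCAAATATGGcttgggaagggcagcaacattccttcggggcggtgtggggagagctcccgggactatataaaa

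Myl9: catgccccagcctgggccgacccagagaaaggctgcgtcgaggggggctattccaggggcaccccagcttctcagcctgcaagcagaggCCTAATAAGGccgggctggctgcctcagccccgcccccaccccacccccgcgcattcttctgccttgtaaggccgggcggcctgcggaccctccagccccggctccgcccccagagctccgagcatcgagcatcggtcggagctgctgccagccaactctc

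Cnn2: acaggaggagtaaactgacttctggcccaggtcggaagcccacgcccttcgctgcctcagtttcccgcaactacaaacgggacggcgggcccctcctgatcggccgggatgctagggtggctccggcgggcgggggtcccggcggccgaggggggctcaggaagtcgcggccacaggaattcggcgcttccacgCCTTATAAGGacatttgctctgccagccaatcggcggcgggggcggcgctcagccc

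Keratins and junction genes gave 9 lower and 0 higher of 19 (median -0.84). Besides the keratins, desmoplakin Dsp fell by 2.55 and Epcam by 2.48, while E-cadherin Cdh1, the main adhesion molecule of mESCs, was not called (-0.037). S100 and annexin calcium-binding genes had 6 lower and 0 higher of 17 (median -0.85), with Anxa2 at -2.80 and S100a10, its partner, at -1.61.

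Imprinted genes, whose parental alleles carry inherited methylation, were lower in 13 of 31 and higher in 2 (median -0.84). Of the 24 well above background on all 4 arrays 7 were lower and 2 higher (median -0.59). The noncoding RNA H19 read 4.16 and 4.22 in 3B3l-serum and -2.93 and -1.10 in 3B3l-2i and changed by -6.21 (adjusted p = 2.62e-06), with 1 of the 2i arrays not well above background; the change was -5.29 without 2i replicate 1 and -7.12 without 2i replicate 2. The array does not separate alleles. The growth factor gene Igf2, neighbour of H19, was at least 2.39-fold lower, the cell cycle inhibitor Cdkn1c at least 11-fold and Nnat at least 11.5-fold. Igf2 entered the test through 3B3l-serum alone, which favours a fall. Dlk1 fell by 2.40, Peg3 by 2.19 and Sgce by 2.96. Plagl1, a zinc finger gene, rose from 2.99 and 3.22 to 5.34 and 5.97, a change of 2.55 with 1 saturated 2i array, and Peg12 rose by 1.44. The long noncoding RNAs Meg3 (-0.41) and Kcnq1ot1 (-0.42) were not called.

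Hox genes, the polycomb-controlled clusters of body axis factors, were called higher in 13 and lower in 0 of 17 tested (median 1.78). The array carries 38 of them, and 5 of those tested were not well above background on any 3B3l array. A dim gene entered the test through whichever group held it above background, and 9 of the 17, Hoxc4 and Hoxb13 among them, passed through a 2i group alone, which favours a rise, so the count describes those tested alone. With signal on all 4 arrays of 3B3l 3 were tested and 2 rose, and without 3B3l-2i replicate 1 there was 1 lower. Hoxc4 read -3.44 and -3.10 in 3B3l-serum and 0.86 and 1.48 in 3B3l-2i and was at least 10.8-fold higher. Hoxb13, Hoxc13 and Hoxa7 were at least 6.8-fold, 4.47-fold and 4.04-fold higher. Hoxa3, well above background throughout, rose by 1.70. Genes of the polycomb complexes themselves gave 2 higher and 4 lower of 26 (median 0.17). Over all tested genes 5.62% were called higher and 7.96% lower. Bmi1, of complex PRC1, rose by 2.00, and the PRC2 accessory factor Phf19 was at least 3.55-fold lower, a call lost without 3B3l-serum replicate 1 (adjusted p = 0.0865), without 3B3l-serum replicate 2 (0.0627) and without 3B3l-2i replicate 2 (0.109). The count of lower members was 2 without 3B3l-serum replicate 2 and 1 without 3B3l-2i replicate 2. The catalytic Ezh2 (0.24) and its partners Suz12 (0.54) and Eed (-0.21, serum saturated) were not called.

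Among metabolic genes, Bhmt, which remethylates homocysteine with betaine, read -2.21 and -1.78 in 3B3l-serum and 2.93 and 3.09 in 3B3l-2i and rose by 5.01 (adjusted p = 1.74e-08), with 1 serum array not well above background. Its paralog Bhmt2 rose by 4.90, also with 1 serum array not well above background. Dmgdh, which takes the step after Bhmt, was at least 38.7-fold higher (adjusted p = 0.00243), with J1-serum arrays spread from -4.71 to 0.33 in the same fit. Bhmt2 and Dmgdh entered the test through 2i groups alone, which favours a rise. The rest of one-carbon metabolism added no further rise: 3 of 27 rose and 2 fell (median -0.076), where 13.6% of all tested genes were called. With signal on all 4 arrays of 3B3l, each gene read by its brightest such probe, 24 were tested, 1 rose and 2 fell. Mat2a, which makes S-adenosylmethionine, was not called (-0.076). Sterol and fatty acid genes rose in 7 of 33 and fell in 0 (median 0.66), with Scd1, the stearoyl desaturase, at 1.84, the SREBP regulator Insig1 at 1.65 and Msmo1 at 1.37. Fatty acid synthase, Fasn, was not called (0.056). Amino acid stress genes had 1 higher and 2 lower of 24 (median 0.032), and hypoxia and glycolysis genes 6 and 1 of 30 (median -0.067), where hexokinase Hk1 rose by 1.48 and Pfkfb3 fell by 1.74. These small counts moved by 1 or 2 genes when single arrays of 3B3l were left out.

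Cell cycle genes gave 3 higher and 4 lower of 22 (median 0.29). The cyclin-dependent kinase inhibitor Cdkn1a rose by 1.61, and its relatives Cdkn2c and Cdkn2b were at least 1.48-fold higher and 3.43-fold lower. In the Myc family and its targets 4 of 18 fell and 0 rose (median -0.19), with the Max dimer partner Mxd4 at least 2.93-fold lower and nucleolin Ncl saturated in both media; 1 member rose without 3B3l-serum replicate 2. Interferon-induced genes went both ways, 4 higher and 3 lower of 17 (median 0.14): Oas1a, an antiviral RNA sensor, rose by 2.03, and Bst2, which tethers virions, fell by 1.47. Without 3B3l-2i replicate 2 the lower members numbered 5.

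Markers of differentiated cells were mostly lower or not called. Neural markers were lower in 9 of 16 (none higher, median -1.21), and trophoblast markers in 7 of 15, with 2 higher (median -1.37). Of the 10 neural members well above background on all 4 arrays 5 were lower (median -0.90). Of the 7 trophoblast members well above background on all 4 arrays 1 was lower and 2 higher (median -0.096). Primitive endoderm markers were lower in 7 of 17 and higher in 0 (median -0.73), and 1 of the 5 well above background on all 4 arrays was lower. Basement membrane collagen Col4a1 was at least 9.41-fold lower, the defining factor Gata4 was not called (-0.20), and Pdgfra and Foxa2 were not well above background on any 3B3l array. Mesendoderm markers had 4 higher and 2 lower of 16 (median 0.26), with Eomes at 1.81; of the 7 well above background on all 4 arrays 2 rose and 0 fell. Fibroblast genes, which feeder cells would bring, were lower in 5 of 13 and higher in 1 (median -0.99). Of the 5 fibroblast genes well above background on all 4 arrays 1 was lower and 0 higher (median -0.64). The collagen Col1a2 was at least 9.24-fold lower, and Dcn was not well above background on any of the 4 arrays. The log2 of the summed signal of the fibroblast list was 5.03 and 5.47 in serum and 5.29 and 5.53 in 2i, overlapping, and that of the neural list 5.44 and 5.74 against 5.04 and 5.17. For primitive endoderm it was 6.32 and 6.38 against 5.77 and 5.73, and for trophoblast 5.51 and 5.29 against 5.06 in both. In bulk RNA fewer cells of a type and less RNA per cell cannot be told apart, and the part of any such cells in the falls above was not tested.

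**Figure D5:**
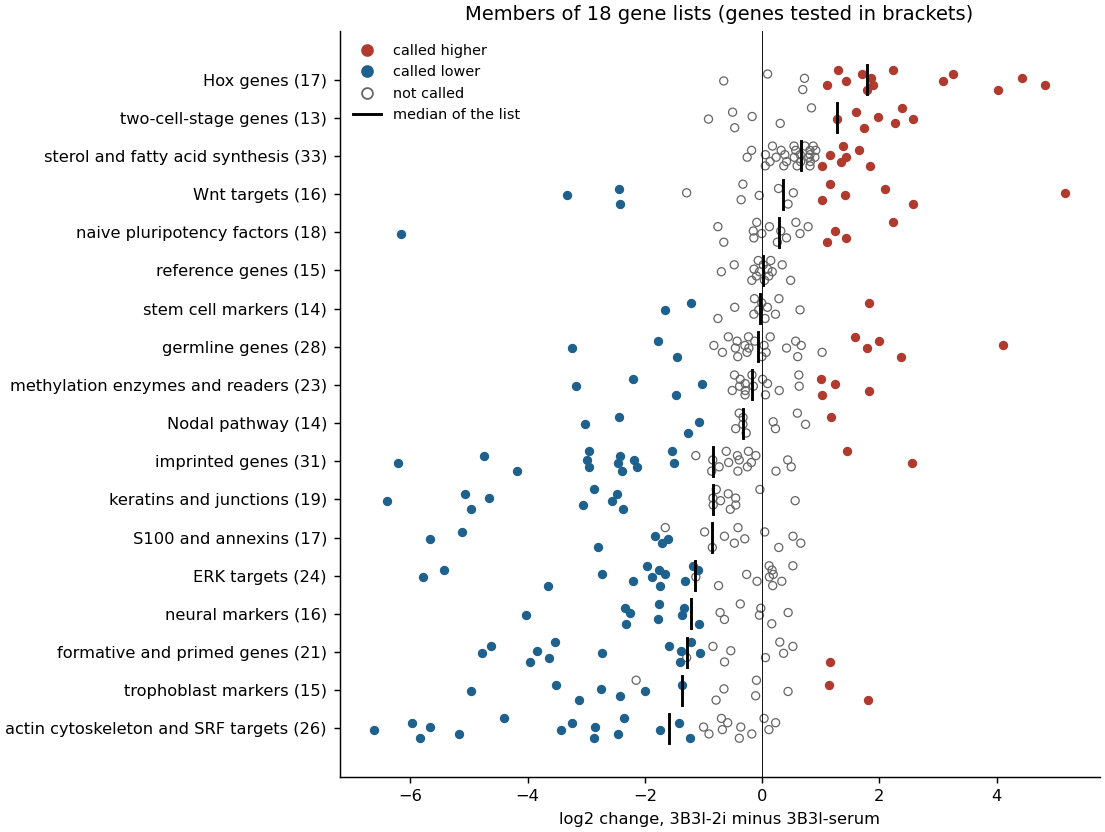
Log2 change (3B3l-2i minus 3B3l-serum) of every tested member of 18 gene lists, with the number tested in brackets. Filled points were called higher (red) or lower (blue), open points were not called, and black bars are list medians, from -1.58 for actin and SRF genes to 1.78 for Hox genes.

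Reference genes gave no call among 15 tested (median 0.02), and the unsaturated ones Tbp (0.02), Hprt (-0.045) and Ywhaz (-0.065) stayed near 0. Of 3309 genes with more than 1 tested probe, 542 were called by at least 1 probe and 215 by all of them in 1 direction.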

How the data were processed

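RNA of 16 mESC samples was measured on 1-colour Agilent 8x60K mouse arrays. Per the file headers, Feature Extraction (version 11.5.1.1 per the submitters' notes) made the processed signal, an intensity after background subtraction without normalization between arrays; the flags (0 or 1) and the raw median intensity are also deposited. A deposited table of log2 values from the authors served as an alternative; its 3B3l columns match the other replicate of the same group. The mean signal used for normexp elsewhere is not in the columns used here, so normexp took the median signal.

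Values were log2 processed signal minus the 75th percentile of the array; outlier spots were left out and saturated spots kept. A probe counted as well above background with at least 50% of spots so flagged. Symbols came from RefSeq accessions (GRCm38.p6) for 28039 of 55681 non-control probes. All 16 arrays entered 1 limma model (3.58.1, R 4.3.3) of 6 group means, two-sided, with Benjamini-Hochberg adjustment over 27126 tested probes, checked on simulated data. Genes were named by size of change, by bounds, by list and by difference from both lines. The members and lists were chosen with earlier results of these data known. Alternatives were scaling, background, filters, blocks, t-tests and leaving out arrays.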

Additional observations from a re-analysis of the deposited data

Results flagged for a closer look

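The 2i response of 3B3l differed from that of another line, by the limma contrast of the 2 responses, for the genes below, in log2 units as 3B3l minus the other line. Upward differences from J1 and TKO were 5.85 and 5.82 for Stra8, 4.51 and 9.99 for Zscan4f, 2.96 and 3.50 for Aurkc, and 2.98 and 3.20 for Mbd1. For genes below background in 3B3l-serum they were 4.18 and 2.92 for Hoxa7, 3.30 and 1.83 for Hoxb13, and 4.26 and 2.41 for Ifi27. Among the methylation genes Dnmt3l gave 2.43 and 1.14 with both 3B3l-serum arrays saturated and TKO-serum too, so these sizes are not measured. The brightest Dnmt3b probe differed by 2.63 from J1, while the 2 dimmer probes had no called difference from J1 (0.41 and 0.69) and called differences from TKO of -1.53 and -1.44. Fkbp6 differed by 1.54 from TKO, and Prdm14 by -1.54 from J1.

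Downward differences were -5.33 and -5.66 for Dppa3, -5.96 and -4.94 for Krtdap, -3.54 and -4.52 for Phldb2, -3.48 and -3.88 for 3830417A13Rik, and -3.30 and -3.46 for Dsc2. Keratins gave -2.29 and -3.54 for Krt18, -2.71 and -5.11 for Krt19, and -2.35 and -4.07 for Krt8. Developmental factors gave -4.63 and -1.89 for Fgf5, -4.33 and -2.68 for Grhl2, -3.45 and -1.49 for Otx2, -2.85 and -2.30 for Nes, and -2.53 and -1.26 for Mycn. The sizes for Dppa3, Krtdap, 3830417A13Rik, Dsc2, Krt19, Fgf5 and Grhl2 are fitted and not measured, since no 3B3l-2i array held these genes well above background, and so is that of Zscan4f from TKO. The 3B3l arrays lay on a slide of their own apart from 1 J1-serum array. With the slide as a block 2427 genes differed from J1 and 1353 from TKO. One J1-serum array stood apart for Krt18, with a gap to its nearest neighbour of 0.930 of the range of the group, past Dixon's critical value, which chance alone passes in about 1 in 20 groups; that array is the one on the slide of 3B3l.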

How the results depend on the processing

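No called log2 change of a named gene changed direction under the alternatives, while small changes that were not called, such as that of Sox2, changed sign when an array was left out. Axin2, Dmc1, Piwil2 and Tcstv1 did not pass the unadjusted t-test on the 4 arrays. Requiring a signal well above background on all 4 arrays of 3B3l left 458 genes higher and 496 lower, with 1429 differing from J1 and 667 from TKO, as fewer genes were tested. With an adjusted p and no fold limit the counts were 2208, 2132, 4420 and 2177. An unmoderated t-test on the 4 arrays gave 635 higher and 977 lower at an unadjusted p with the fold limit, and 7 and 28 after Benjamini-Hochberg adjustment. Scaling by the array median moved the median change of all genes to 0.13 and gave 982 higher and 970 lower, so that 50.3% of calls were higher instead of 41.4%. Other settings kept the counts within 1.5 times. With the replicate block 783 genes were higher and 1107 lower, with 2317 differing from J1 and 1228 from TKO; the deviations of same-numbered arrays correlated at 0.272, but with 2 pairs the numbers may mark no pairing, and the block moved no called log2 change of a named gene across the threshold, while among their differences from J1 2 calls were lost and 1 gained, and from TKO 1 was lost, none of them given above. Leaving out 1 array of 3B3l gave 709 to 925 higher and 1044 to 1115 lower, and leaving out 1 array of the lines compared gave 2276 to 2387 differing from J1 and 1217 to 1346 from TKO. The difference of Dnmt3l from TKO was not called under normexp background correction (1.00). Signal over background sets what can be read: genes below background in one medium have only a bound on their change, saturated genes only a lower limit, and 2 arrays per medium limit the precision.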
